A study of Homo sapiens with 12 samples.

Results

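The 9 genes described here encode the desmosome: the plakophilins PKP1, PKP2, PKP3 and PKP4, the plaque proteins desmoplakin (DSP) and plakoglobin (JUP), and the desmosomal cadherins DSG2, DSC2 and DSC3. They were taken by symbol from the 36762 gene symbols of the count tables, and each of the 9 was present in both tables. The set was chosen by its measured levels and changes across the groups, which were known when it was proposed, so those values are given as a description. All cells derived from UCLA1, a human embryonic stem cell line. The libraries covered 2 stages, undifferentiated stem cells (hESC) and incipient mesoderm-like cells (iMeLC), the intermediate from which primordial germ cell-like cells are made. Control lines (CTRL) stood against lines with a knockout of the catalytic domain of TET1 (CDKO), a dioxygenase that turns methylated cytosine into its hydroxymethyl form. CTRL hESC and CTRL iMeLC came from the lines CTRL1101, CTRL1106 and CTRL1109, and CDKO hESC and CDKO iMeLC from the lines CDKO1102, CDKO1105 and CDKO1312, with 3 libraries in each of the 4 groups and 12 in all. The labels do not say whether each line is a single clone. The iMeLC columns carry the line number. The hESC columns are named as wild type or knockout with a number from 1 to 3, so they are called CTRL hESC 1 to 3 and CDKO hESC 1 to 3 and are tied to no line.

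Desmosomes are spot-like junctions that couple the intermediate filaments of neighbouring epithelial or heart muscle cells. Desmogleins and desmocollins are the transmembrane cadherins that meet between the cells. On the inner side of the membrane their tails bind plakoglobin and the plakophilins, armadillo-repeat proteins that cluster the cadherins and recruit desmoplakin, and desmoplakin in turn holds the keratin, desmin or vimentin filaments. PKP2, DSG2 and DSC2 are the members typical of simple epithelia and heart muscle, whereas PKP1 and DSC3 are known from stratified epithelia such as skin. PKP3 is broadly expressed in epithelia, and PKP4 is a more distant relative found mostly at adherens junctions. Pluripotent stem cells grow as an epithelial sheet with desmosomes.

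The genomic stretch just upstream of the annotated start is shown for 3 members, because TET1 acts on CpG dinucleotides. These are DSP, the most abundant member per kb of exon, and PKP1 and DSC3, the least abundant pair by that measure. The stretches are RefSeq sequence of GRCh38.p14, written 5′ to 3′ on the gene's strand, with each CpG in capitals. They are chr6:7541421-7541574 on the plus strand for DSP, chr1:201283256-201283451 on the plus strand for PKP1 and chr18:31042816-31042992 on the minus strand for DSC3.
DSP: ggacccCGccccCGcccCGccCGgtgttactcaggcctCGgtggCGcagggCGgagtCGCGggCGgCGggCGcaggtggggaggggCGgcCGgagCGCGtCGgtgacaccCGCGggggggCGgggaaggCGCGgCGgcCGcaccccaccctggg
PKP1: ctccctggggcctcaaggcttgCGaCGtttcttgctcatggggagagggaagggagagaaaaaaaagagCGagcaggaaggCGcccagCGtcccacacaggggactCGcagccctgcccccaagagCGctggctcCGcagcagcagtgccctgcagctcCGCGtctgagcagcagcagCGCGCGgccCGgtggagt
DSC3: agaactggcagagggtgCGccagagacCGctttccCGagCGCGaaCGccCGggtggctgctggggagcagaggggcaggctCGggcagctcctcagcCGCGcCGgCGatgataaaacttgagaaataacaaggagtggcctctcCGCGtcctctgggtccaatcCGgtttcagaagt

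The printed run held 24 CpG in 154 bases for DSP, 14 in 196 bases for PKP1 and 15 in 177 bases for DSC3. In the whole 250 bases before the RefSeq start, the 7 members with an entry in the promoter table held between 12 CpG (DSC2) and 33 CpG (DSP), against a median of 11 over 27305 promoters. Counts for the others were 17 in PKP1 and JUP, 18 in DSC3, 23 in PKP4 and 26 in DSG2. Except in PKP4, these windows ran into annotated exons of the same gene, where the printed runs stop. JUP had 30 bases before such an exon, with 0 CpG, so its 17 CpG lay past that point. The motif matches below also cover the whole windows. The E-box CACCTG, a sequence bound by the ZEB and SNAI repressors of epithelial genes, was searched on both strands. It was found 2 times in the 250 bases of DSP, 2 times in DSG2 and 1 time in DSC2, and 17.5% of all promoters held it. The grainyhead motif AACCNGTT was found in 1.48% of all promoters and in none of these 7 windows. These matches describe the letters of the windows and no binding or methylation was measured. PKP2 and PKP3 were not matched.

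Library totals were between 12517593 and 18855099 counts in hESC and between 52121702 and 109479071 counts in iMeLC. Levels are given as CPM, which are counts put on one library size by TMM scaling within each stage. All fold changes and adjusted p-values came from edgeR's quasi-likelihood test across all genes, with Benjamini-Hochberg adjustment and a threshold of 0.05. TET1 itself measured 325, 379.9 and 344 CPM in the CTRL hESC libraries and 424, 448 and 378 CPM in the CDKO hESC libraries, and 257 to 289 CPM in CTRL iMeLC and 268 to 309 CPM in CDKO iMeLC, and it passed the test at neither stage. A whole-gene count does not check the removal of one domain. Summed pluripotency markers (POU5F1, SOX2, NANOG, LIN28A, DNMT3B and TDGF1) were 8084 to 9963 CPM in hESC and 3874 to 4523 CPM in iMeLC. Summed mesoderm markers (TBXT, MIXL1 and EOMES) were 3.94 to 84.9 CPM in hESC, 45.6 to 455 CPM in CTRL iMeLC and 267 to 430 CPM in CDKO iMeLC. Markers of stratified epidermis, where PKP1 and DSC3 are at home, summed to 9.98 to 17.0 CPM, of which KRT10 made up 9.94 to 15.7 CPM. The basal markers KRT5, KRT14 and TP63 reached at most 0.405, 0.165 and 0.492 CPM in any library. Several libraries stood apart from the others of their group. In CTRL1101 iMeLC, VIM was 1767 CPM against 476 and 643 CPM in the other control libraries, and ZEB1 was 13.9 CPM against 2.88 and 5.49 CPM. CTRL1106 iMeLC had the lowest mesoderm sum of the iMeLC libraries, 45.6 CPM, and CDKO hESC 3 had an endoderm marker sum of 152 CPM where the other hESC libraries had at most 22.4 CPM. P-values measure the spread between these libraries, since the labels do not say when or how separately the lines were cultured. In bulk RNA, fewer cells of a type and less RNA per cell cannot be told apart.

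Levels of the 9 genes spanned a wide range, and their order per kb of exon was nearly the same in every group. That order depended on the length used, because the coding part of the exons differed between genes. It was 8613 of 10093 bases in DSP and 3354 of 6190 in DSG2, and 2643 of 7043 in PKP2 and 2703 of 12495 in DSC2. Per kb of exon, DSP was the most abundant, at 57.1 ± 7.70 CPM per kb in CTRL hESC and 84.6 ± 5.62 CPM per kb in CDKO iMeLC (SD, n = 3). DSG2 was next, at 46.2 ± 7.23 CPM per kb in CTRL hESC and 50.2 ± 3.00 CPM per kb in CDKO iMeLC. JUP, at 16.2 to 25.7 CPM per kb as group means, and PKP4, at 10.6 to 15.5 CPM per kb, followed. DSP and DSG2 overlapped between libraries in both hESC groups, and JUP and PKP4 overlapped in CTRL iMeLC. PKP2 and DSC2 came next, and by this measure exchanged places between the stages. In hESC their libraries overlapped (5.83 and 6.08 CPM per kb in CTRL hESC), whereas in iMeLC PKP2 was above DSC2 in every library of both groups (10.8 against 7.11 CPM per kb in CTRL iMeLC, 12.4 against 9.36 CPM per kb in CDKO iMeLC). In plain CPM, by contrast, DSC2 was above PKP2 by mean in CTRL iMeLC (88.9 against 76.4 CPM) and CDKO iMeLC (117 against 87.5 CPM). Per kb of exon, PKP3 stood below PKP2 and DSC2, DSC3 below PKP3, and PKP1 last in all 4 groups. In CDKO iMeLC the mean of PKP3, 0.552 CPM per kb, was close to that of DSC3, 0.402 CPM per kb, although the libraries still did not overlap. In plain CPM their order there was the opposite, at 1.99 to 2.23 CPM for PKP3 and 2.60 to 3.24 CPM for DSC3. In CTRL iMeLC the same pair stood at 4.82 and 0.636 CPM per kb. The other desmosomal cadherins DSG1, DSG4 and DSC1 did not pass the filter on low counts, and DSG3 passed it in iMeLC alone, where its libraries held at most 0.427 CPM.

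**Figure D1:**
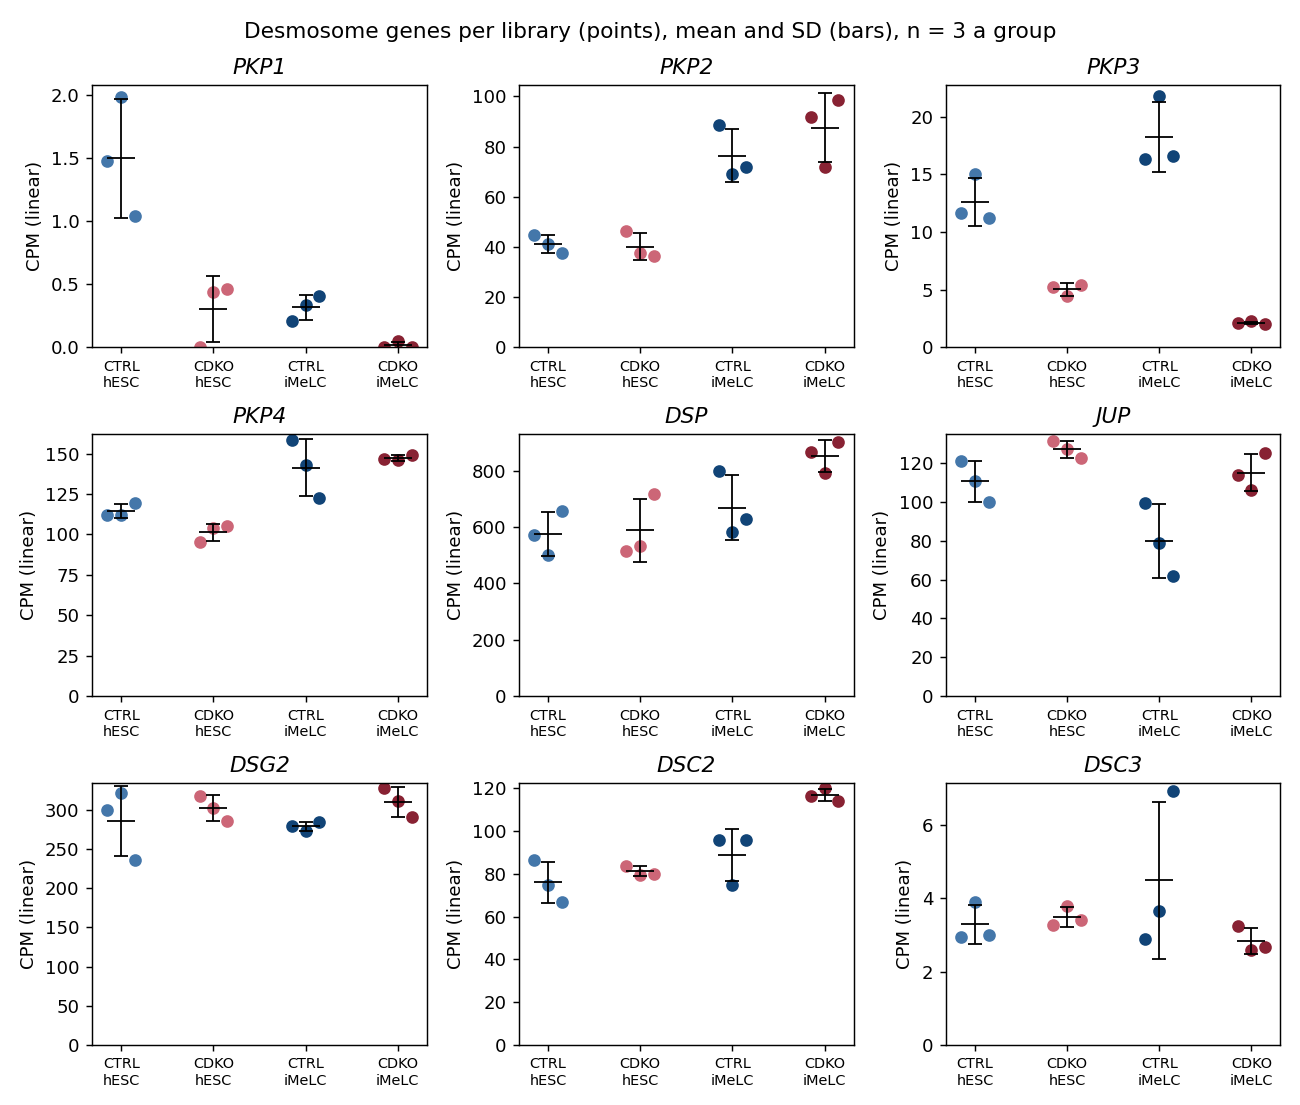
Level of each of the 9 desmosome genes in CPM (linear vertical axis from 0), 1 point a library, with the mean and SD of the 3 libraries of each group. PKP3 lies at 11.2 to 15 CPM in CTRL hESC and 4.41 to 5.44 CPM in CDKO hESC, and at 16.4 to 21.8 CPM in CTRL iMeLC and 1.99 to 2.23 CPM in CDKO iMeLC. The points of PKP1, at under 2 CPM throughout, lie lower in CDKO at both stages without passing edgeR's test. PKP1 passed the filter on low counts only through the control libraries.

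PKP3 was lower in the TET1 knockout at both stages. The gene lies on the plus strand of chromosome 11, from 392614 to 404908 (GRCh38, ENSG00000184363), and no exon of it overlaps another annotated gene. In hESC, PKP3 measured 11.7, 15 and 11.2 CPM in CTRL 1 to 3 against 5.23, 4.41 and 5.44 CPM in CDKO 1 to 3. All 3 knockout libraries were below all 3 controls. Knockout levels were 2.52-fold lower, with a log2 fold change of -1.33 (SE 0.17, 95% interval -1.72 to -0.94, edgeR adjusted p = 0.0146), in 3 of 3 libraries. In iMeLC, PKP3 measured 16.4 CPM in CTRL1101, 21.8 CPM in CTRL1106 and 16.6 CPM in CTRL1109, and 2.05 CPM in CDKO1102, 2.23 CPM in CDKO1105 and 1.99 CPM in CDKO1312. The groups were again fully separate, and the knockout libraries varied little (2.09 ± 0.126 CPM, SD, n = 3). Knockout levels were 8.71-fold lower, with a log2 fold change of -3.12 (SE 0.18, 95% interval -3.53 to -2.71, edgeR adjusted p = 0.000989). These values rested on 671 counts in CTRL hESC, 238 in CDKO hESC, 5535 in CTRL iMeLC and 455 in CDKO iMeLC. PKP3 ranked 22 of 17222 genes by p in hESC and 3 of 19999 in iMeLC, ranks that describe a gene proposed with these changes known. The hESC call was lost without CDKO hESC 1 (log2 fold change -1.37, edgeR adjusted p = 0.0621) and without CDKO hESC 2 (-1.24, edgeR adjusted p = 0.0968), and the iMeLC call was kept when any 1 library was left out (-3.19 to -2.98).

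PKP1, a plakophilin known mainly from the upper layers of skin, was near the limit of detection. Its 3 CTRL hESC libraries held 24, 35 and 20 counts, or 1.48, 1.98 and 1.04 CPM. The CDKO hESC libraries held 0, 8 and 8 counts, where 0 counts in CDKO hESC 1 allow up to 0.245 CPM at 3 counts. In CTRL iMeLC it was 0.208, 0.333 and 0.408 CPM (20, 32 and 46 counts). In CDKO iMeLC only CDKO1105 had any count, 4 in all (0.0458 CPM), and the 0 counts of CDKO1102 and CDKO1312 allow up to 0.0592 and 0.0383 CPM. At both stages every control library was above every knockout library. The summed counts per summed library size were 4.42 times higher in CTRL than in CDKO in hESC (exact 95% interval 2.56 to 8.12) and 17.4 times higher in iMeLC (6.58 to 65.1). Those intervals cover counting error only. With the spread between libraries, the fitted log2 fold changes of -2.17 (SE 0.60) in hESC and -4.06 (SE 1.0) in iMeLC did not pass edgeR's test (adjusted p = 0.123 and 0.127). DESeq2 did call both (adjusted p = 0.0385 and 0.00985). PKP1 passed the filter on low counts only through the control libraries.

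The other plakophilins did not pass the test at either stage. PKP2, the plakophilin of heart muscle and simple epithelia, stood at 44.5, 41.3 and 37.4 CPM in CTRL hESC and at 46.4, 37.5 and 36.4 CPM in CDKO hESC. In iMeLC it was 88.6, 68.9 and 71.7 CPM in the control lines and 92.0, 72.0 and 98.4 CPM in the knockout lines. The groups overlapped at both stages, with log2 fold changes of -0.04 (95% interval -0.29 to 0.21) and 0.20 (-0.14 to 0.53) and edgeR adjusted p-values of 0.9 and 0.477. PKP4, which also binds classical cadherins, was 112, 112 and 119 CPM in CTRL hESC and 95.3, 104 and 105 CPM in CDKO hESC. These hESC groups did not overlap, yet the difference was small, a log2 fold change of -0.17 (95% interval -0.34 to -0.01, edgeR adjusted p = 0.288). In iMeLC, PKP4 was 158, 143 and 123 CPM in the control lines and 147, 146 and 149 CPM in the knockout lines, and the groups overlapped (0.06, 95% interval -0.18 to 0.30). PKP4 shares 418 exonic bases with the antisense gene PKP4-AS1, which never passed 0.208 CPM.

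The plaque proteins that link the cadherins to the filaments were not lower in the knockout. DSP, the filament anchor, stood at 573, 501 and 656 CPM in CTRL hESC and at 516, 532 and 718 CPM in CDKO hESC. The groups overlapped, with a log2 fold change of 0.03 (95% interval -0.28 to 0.34, edgeR adjusted p = 0.937). In iMeLC, DSP was 799, 581 and 629.6 CPM in the control lines and 869, 791 and 901 CPM in the knockout lines. CTRL1101 reached into the range of the knockout lines, and the log2 fold change was 0.35 (SE 0.13, edgeR adjusted p = 0.203). JUP, shared by desmosomes and adherens junctions, was 121, 111 and 100.1 CPM in CTRL hESC and 132, 127 and 123 CPM in CDKO hESC. In iMeLC it was 99.3, 78.8 and 61.6 CPM in the control lines and 114, 106 and 125 CPM in the knockout lines. JUP was higher in every knockout library than in every control library at both stages, without passing the test (log2 fold changes 0.20, SE 0.08, and 0.53, SE 0.17, edgeR adjusted p = 0.285 and 0.165).

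Among the cadherins, DSG2 is the desmoglein of simple epithelia. It stood at 300.2, 322 and 236 CPM in CTRL hESC and at 319, 303 and 286 CPM in CDKO hESC, and the groups overlapped. In iMeLC it was 279, 274 and 285 CPM in the control lines and 329, 311 and 292 CPM in the knockout lines. Those groups were separate by a narrow margin, with a log2 fold change of 0.15 (95% interval -0.03 to 0.33, edgeR adjusted p = 0.312). It shares 171 exonic bases with the antisense gene DSG2-AS1, which stayed at or below 0.386 CPM. DSC2, the desmocollin partner of DSG2, was 86.3, 74.9 and 66.9 CPM in CTRL hESC and 83.9, 79.6 and 79.9 CPM in CDKO hESC. In iMeLC it was 95.9, 74.9 and 95.9 CPM in the control lines and 117, 120.0 and 114 CPM in the knockout lines. The iMeLC groups did not overlap, and the log2 fold change of 0.40 (SE 0.11) did not pass (edgeR adjusted p = 0.142). DSC3, a desmocollin of stratified epithelia, stood at 2.95, 3.91 and 3.01 CPM in CTRL hESC and at 3.27, 3.80 and 3.41 CPM in CDKO hESC. In iMeLC it was 2.88, 3.65 and 6.94 CPM in the control lines and 3.24, 2.60 and 2.68 CPM in the knockout lines. The groups overlapped at both stages, and CTRL1109 was the highest library in iMeLC (log2 fold change -0.66, SE 0.34, edgeR adjusted p = 0.319).

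In all, 1 of 9 members passed the test between genotypes at each stage, PKP3 in both cases. The background was 1.31% of the 17222 genes tested in hESC (0.714% lower in CDKO) and 0.345% of the 19999 tested in iMeLC (0.265% lower). The set was proposed with these contrasts known, so nothing is read from that count. Groups did not overlap for 4 of 9 members in hESC, where 22.1% of all genes did not, and for 5 of 9 in iMeLC, where 26.1% did not. PKP1, which passed the filter on low counts only through its control libraries, is counted at both stages. The median log2 fold change of the 9 was 0.03 in hESC and 0.15 in iMeLC, against -0.0018 and -0.03 over all genes tested. A single control library weighed on these values. Without CTRL1101 iMeLC the number of members called rose to 5, with DSP at 0.50 (edgeR adjusted p = 0.0153), JUP at 0.72 (0.0201) and DSC2 at 0.46 (0.0436) higher in CDKO, PKP1 lower at -4.28 (0.0482) and PKP3 lower at -3.19 (0.000957). The same omission raised the calls over all genes from 69 to 2646.

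**Figure D2:**
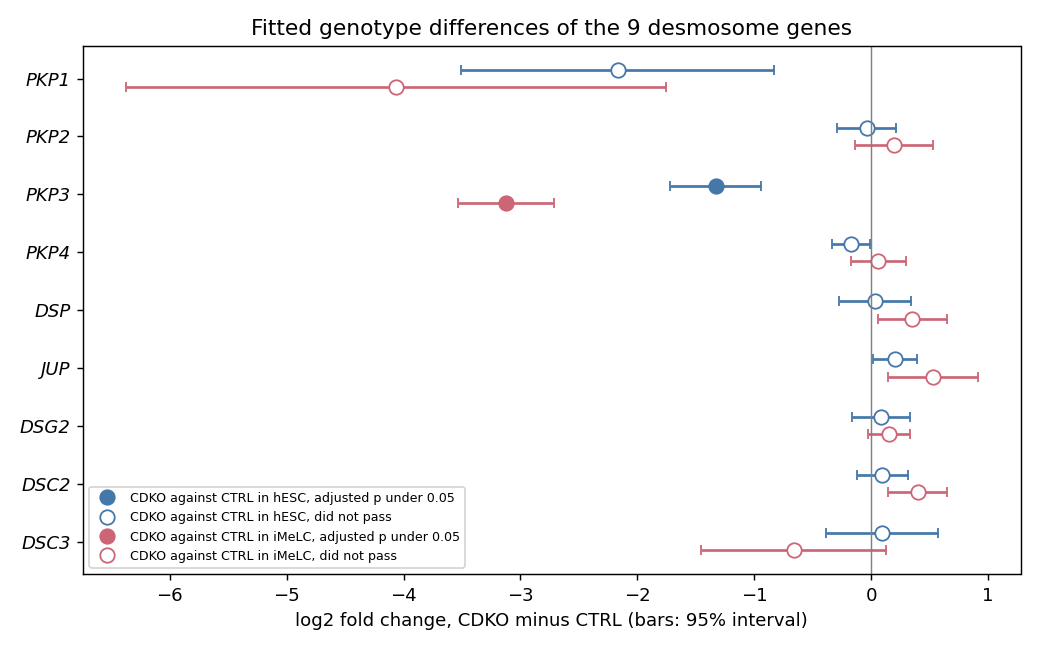
Fitted log2 fold change of CDKO against CTRL for the 9 genes in hESC and iMeLC, with 95% intervals; filled points passed an adjusted p under 0.05. PKP3 is the filled point at both stages, at -1.33 and -3.12, PKP1 has wide intervals below 0, and the other 7 genes lie between -0.66 and 0.53.

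Marker lists moved beside these differences in iMeLC. The summed endoderm markers SOX17, FOXA2, GATA6 and CXCR4 were 8.70 to 92.5 CPM in CTRL iMeLC and 105 to 247 CPM in CDKO iMeLC. The sums did not overlap, and all 4 markers were detected. Taken singly, FOXA2 overlapped (15.4 CPM in CTRL1109 against 13.5 CPM in CDKO1105). GATA6 was separate by a narrow margin (44.1 CPM in CTRL1109 against 45.1 CPM in CDKO1105), and SOX17 and CXCR4 did not overlap. The neuroectoderm sum of PAX6, SOX1 and OTX2 was 27.1 to 34.5 CPM against 49.1 to 93.9 CPM, almost all of it OTX2. Fibroblast markers were 461 to 936 CPM in CTRL iMeLC and 699 to 955 CPM in CDKO iMeLC. Most of that sum was COL1A1, COL1A2 and THY1, which overlapped between genotypes, and THY1 was also at 248 to 443 CPM in hESC. COL3A1 was 12.2 to 41.2 CPM in CTRL iMeLC and 70.4 to 147 CPM in CDKO iMeLC. DCN (at most 8.21 CPM) and LUM (at most 3.37 CPM) were also higher in CDKO iMeLC without overlap, and POSTN overlapped. Amnion or surface ectoderm markers were 5.08 to 9.92 CPM against 7.22 to 11.4 CPM. Heart muscle markers stayed at or below 7.40 CPM in every library. The mesenchymal genes ZEB1, ZEB2 and VIM were above CTRL1106 and CTRL1109 in every knockout iMeLC line, without passing the test. ZEB1, a repressor of epithelial genes, was 13.9, 2.88 and 5.49 CPM in the control iMeLC lines and 27.7, 23.3 and 15.1 CPM in the knockout lines, without overlap (log2 fold change 1.57, SE 0.52, edgeR adjusted p = 0.179). Its relative ZEB2 was 46.3, 11.2 and 11.5 CPM against 48.4, 43.4 and 31.5 CPM, and the filament gene VIM 1767, 476 and 643 CPM against 1802, 1722 and 1441 CPM, with CTRL1101 inside the range of the knockout lines for both (edgeR adjusted p = 0.407 and 0.351). ZEB1, ZEB2 and VIM were named after their values were seen. The epithelial cadherin CDH1 overlapped between genotypes in iMeLC (log2 fold change 0.04, SE 0.12, edgeR adjusted p = 0.876). CDH2, another adherens junction cadherin, was at 0.74 (edgeR adjusted p = 0.203). The keratins KRT8 and KRT18 were at 0.63 and 0.43 (edgeR adjusted p = 0.183 and 0.294). The part of all these genes and lists in the desmosome values was not tested. In hESC the endoderm sum overlapped between genotypes, at 5.83 to 22.4 CPM in CTRL and 11.2 to 152 CPM in CDKO. Without CDKO hESC 3, which set that upper end, the log2 fold change of PKP3 was -1.40 (edgeR adjusted p = 0.0495). The part of the endoderm markers in the PKP3 difference in hESC was not tested.

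Within the plakophilin family, the share of PKP3 dropped in the knockout. Shares were taken of the 4 plakophilins' summed CPM per kb of exon. PKP3 made up 15.5 ± 2.22% in CTRL hESC and 7.49 ± 0.739% in CDKO hESC, and 15.9 ± 2.96% in CTRL iMeLC and 1.95 ± 0.268% in CDKO iMeLC (SD, n = 3). The libraries ranged from 14.1 to 18.1% against 6.67 to 8.11% in hESC, and from 12.9 to 18.8% against 1.74 to 2.26% in iMeLC, so no control library overlapped a knockout library. PKP1 was 1.12 ± 0.331% in CTRL hESC and at most 0.421% in any library of the other groups. PKP4 held the largest share, 48.5 to 60.1% as group means, and PKP2 held 27.2% in CTRL hESC, 32.1% in CDKO hESC, 35.5% in CTRL iMeLC and 43.5% in CDKO iMeLC. Per coding base the PKP3 shares were smaller, 9.95, 4.63, 10.2 and 1.18% in the same order of groups, because more of its exon length is coding. Among the desmosomal cadherins, shares overlapped between genotypes in hESC. DSG2 made up 87.3 ± 1.12% of the desmosomal cadherins in CTRL hESC and 87.2 ± 0.403% in CDKO hESC, then 85.3 ± 1.62% and 83.6 ± 0.644% in iMeLC. DSC2 took 11.6% in both hESC groups, 13.4 ± 1.40% in CTRL iMeLC and 15.6 ± 0.700% in CDKO iMeLC, where the libraries did not overlap. DSC3 held 1.19 ± 0.536% in CTRL iMeLC (0.767 to 1.80%) and 0.670 ± 0.0590% in CDKO iMeLC (0.611 to 0.729%), also without overlap, with CTRL1109 the highest. Per coding base DSG2 made up 74.2, 74.0, 70.7 and 67.6% and DSC2 24.6, 24.7, 27.8 and 31.6%, in the same order of groups as above, so the DSC2 share depended on the length used.

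**Figure D3:**
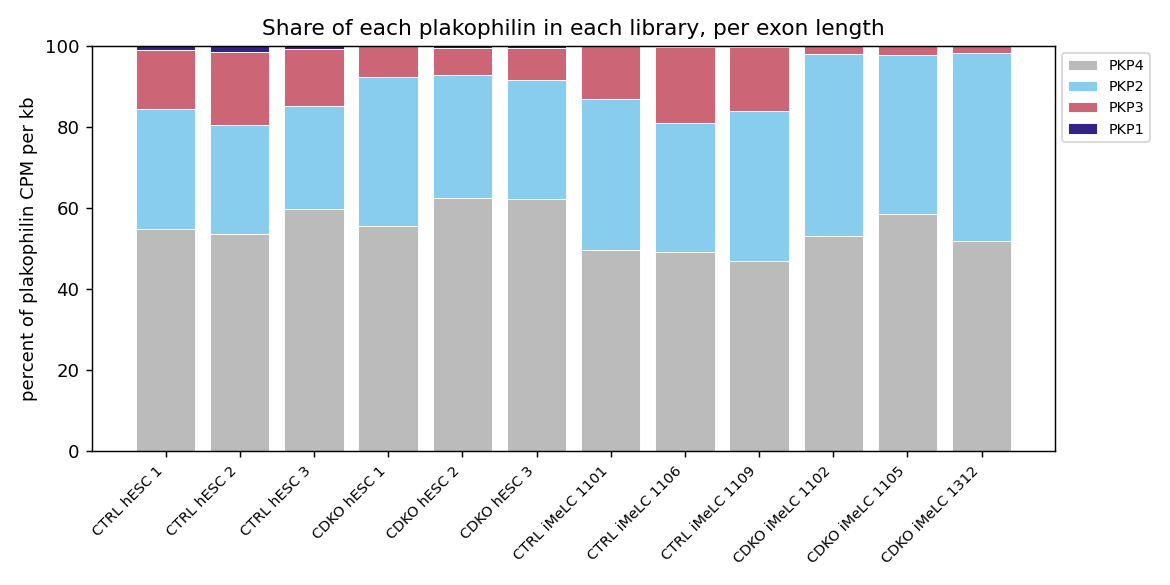
Share of each plakophilin in the summed plakophilin CPM per kb of exon (stacked percent, 1 bar a library). The PKP3 segment spans 12.9 to 18.8% in the control libraries of both stages, 6.67 to 8.11% in CDKO hESC and 1.74 to 2.26% in CDKO iMeLC.

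From hESC to iMeLC, most members were higher in both genotypes, and PKP3 went opposite ways. Each stage was one table of its own depth, and stage and table cannot be told apart here. The same lines supplied both stages, but the fit had no term for the line, because the hESC columns name none. The CPM were scaled within each stage and are not comparable between stages, so they can differ in direction from the fold changes below. DSG2 in CTRL, for example, was 286 CPM in hESC and 279 CPM in iMeLC, beside a fitted log2 fold change of 0.29. In the fit over all 12 libraries, 8 of 9 members passed in CTRL (7 higher, 1 lower), against 49.4% of 20262 genes (29.5% higher, 19.9% lower). In CDKO 7 of 9 passed (5 higher, 2 lower), against 59.8% of all genes (32.1% higher, 27.7% lower). PKP3 was higher in iMeLC in the control lines, with a log2 fold change of 0.85 (SE 0.17, edgeR adjusted p = 0.00083). In the knockout lines it was lower, at -0.90 (SE 0.18, edgeR adjusted p = 0.000775). PKP2 was higher in both, at 1.22 in CTRL and 1.49 in CDKO (edgeR adjusted p = 1.02e-05 and 1.31e-06), as was PKP4, at 0.63 and 0.90 (8.01e-05 and 2.55e-06). DSC2 was also higher in both (0.55 and 0.89, edgeR adjusted p = 0.00107 and 1.55e-05). DSP was higher by 0.54 in CTRL and 0.90 in CDKO (edgeR adjusted p = 0.00886 and 0.000202) and DSG2 by 0.29 and 0.40 (0.0338 and 0.00504). PKP1 was lower in both, at -1.91 and -3.64 (edgeR adjusted p = 0.0397 and 0.0088), DSC3 passed in CTRL alone (0.77, 0.0428), and JUP in neither (-0.14 and 0.22). Some CTRL calls ended when 1 library was left out. That of PKP1 was lost in 5 of the 6 omissions, all but that of CTRL1109 iMeLC (edgeR adjusted p = 0.0532 to 0.147). That of DSG2 was lost without CTRL hESC 3 or any 1 of the CTRL iMeLC libraries (0.0677 to 0.112). DSC3 lost the call without CTRL hESC 1 (0.111), CTRL hESC 3 (0.107) or CTRL1109 iMeLC, where it stood at 0.27 (0.343), and DSP without CTRL1101 iMeLC (0.34, 0.0599). DSG2 and DSC3 were also not called in CTRL by DESeq2 (adjusted p = 0.185 and 0.0696), with its size factors in edgeR (0.15 and 0.0685) or in a fit of the 6 CTRL libraries (0.122 and 0.127). These values depended on how the tables were scaled to each other. Scaling by library totals in place of TMM moved the median of all genes by 0.30 in CTRL and 0.39 in CDKO towards lower in iMeLC. With that scaling, chosen after the data were seen, PKP3 remained higher in CTRL (0.56, edgeR adjusted p = 0.0143) and lower in CDKO (-1.29, 5.97e-05). DSG2 was then at -0.0028 in CTRL and 0.02 in CDKO, DSP (0.24) and DSC3 (0.48) no longer passed in CTRL, and JUP was lower there (-0.45, edgeR adjusted p = 0.0115).

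The difference between the genotype effects at the 2 stages was tested as an interaction, in which a table effect common to both genotypes cancels. Here too the fit took no account of the lines shared between the stages. PKP3 gave -1.75 on the log2 scale (SE 0.24, 95% interval -2.28 to -1.23, edgeR adjusted p = 0.0381), a knockout deficit 3.36-fold deeper in iMeLC than in hESC. It was 1 of 9 members and 1 of 4 genes called out of 20262 (0.0197%), the 1 that was lower (0.00494%), and ranked 4 by p. The number of genes called depended on the fit, as given in the last section. The set was proposed with its changes across the groups known, so nothing is read from that count or rank. The direction held in each fit that left out 1 library (-1.89 to -1.62), but the call was lost in 10 of those 12 fits. It was kept without CTRL hESC 2 (edgeR adjusted p = 0.0277) and without CTRL1101 iMeLC (0.0123). For the other 8 members the interaction did not pass (edgeR adjusted p from 0.438 for DSC2 to 0.827 for DSG2). PKP1 could not be placed, with an interval of -4.36 to 0.91.

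The chromosomal surroundings of PKP3 were examined after its values had been seen. Within 150 kb of its start lay the starts of 23 other annotated genes, of which 14 were tested in hESC and 13 in iMeLC. ANO9, which encodes a membrane protein of the anoctamin family, was the 1 gene among them that passed at either stage. Its start lies 49.4 kb downstream and it is read from the opposite strand. ANO9 stood at 4.92, 5.09 and 6.01 CPM in CTRL hESC and at 1.63, 1.93 and 1.85 CPM in CDKO hESC. In iMeLC it was 2.16, 5.18 and 4.94 CPM in the control lines and 0.375, 0.447 and 0.600 CPM in the knockout lines. No knockout library reached a control library at either stage. The log2 fold changes were -1.56 (SE 0.21, edgeR adjusted p = 0.0146) in hESC and -3.10 (SE 0.41, edgeR adjusted p = 0.0374) in iMeLC, beside -1.33 and -3.12 for PKP3. The hESC call was lost without any 1 of the CDKO hESC libraries (edgeR adjusted p = 0.0545 to 0.092) and in the fit of all 12 libraries (0.0726), and the iMeLC call was lost in 5 of 6 omissions, all but that of CTRL1101 iMeLC. SIGIRR, a regulator of interleukin-1 receptor signalling whose gene lies between the pair, was not called. It stood at 29.5 ± 1.49 CPM in CTRL hESC and 29.9 ± 0.858 CPM in CDKO hESC, and at 10.9 ± 2.30 CPM and 9.90 ± 0.447 CPM in iMeLC (log2 fold changes 0.02 and -0.14, edgeR adjusted p = 0.937 and 0.699). B4GALNT4, 22.8 kb on the other side, was also uncalled (-0.12 and -0.24, edgeR adjusted p = 0.477 and 0.305). All tested genes of the window other than PKP3 and ANO9 lay between -0.12 and 0.53 in hESC and between -0.78 and 0.36 in iMeLC.

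**Figure D4:**
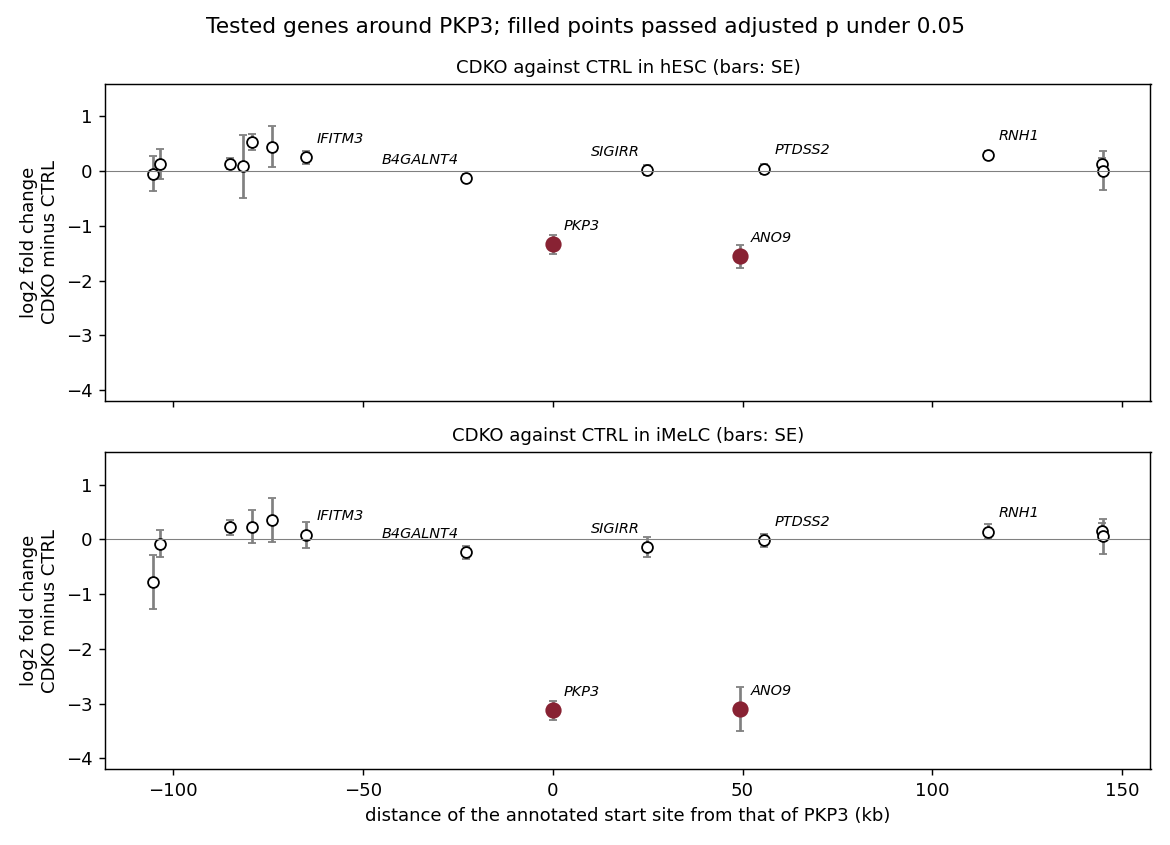
Fitted log2 fold change of CDKO against CTRL for the tested genes within 150 kb of the PKP3 start, by distance between annotated start sites in kb (bars: SE), in hESC above and iMeLC below. PKP3 and ANO9, 49.4 kb apart, are the filled points at both stages, at -1.33 and -1.56 in hESC and -3.12 and -3.10 in iMeLC, and SIGIRR between them lies at 0.02 and -0.14.

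Other junction genes were read from 7 lists of 56 genes covering the rest of the desmosome, filaments, adherens junctions, hemidesmosomes, regulators and the intercalated disc. None of the 48 tested in hESC and none of the 50 tested in iMeLC passed between genotypes with edgeR. At an unadjusted p under 0.05 there were 11 (22.9%, against 16.1% of all genes) and 16 (32.0%, against 19.8%). DESeq2 called 0 of 48 in hESC (against 3.57% of all genes) and 7 of 50 in iMeLC (14%, against 7.51%), among them CTNNB1, CTNND1, CTNND2, DES, EVPL and KRT8. Of the plaque list, envoplakin (EVPL) stood at 1.73, 2.18 and 2.33 CPM in the control iMeLC lines and at 0.671, 1.10 and 0.957 CPM in the knockout lines, without overlap (log2 fold change -1.19, edgeR adjusted p = 0.127). PERP, a tetraspan membrane protein of desmosomes, went the other way, at 104, 60.9 and 106 CPM against 129, 114 and 141 CPM (0.51, edgeR adjusted p = 0.233). Among the filament genes, KRT8, a keratin of simple epithelia, was 0.63 (edgeR adjusted p = 0.183) and desmin (DES) -1.12 (0.135) in iMeLC. In the adherens junction list, beta-catenin (CTNNB1) was 0.39 (edgeR adjusted p = 0.106) and p120-catenin (CTNND1) 0.40 (0.125). ITGB4, the hemidesmosome integrin chain, was at -0.69 (edgeR adjusted p = 0.213) in iMeLC, and its partner ITGA6 at -0.18 (0.226) in hESC. Of the regulators, the protease ADAM10 (0.33, edgeR adjusted p = 0.155) and the palmitoyltransferase ZDHHC5 (0.32, 0.165) had the smallest adjusted p in iMeLC, whereas ZEB1 had the larger fitted difference given above, and TMEM43, a nuclear envelope protein gene of the intercalated disc list, was at 0.54 (0.165). Of the other desmosomal cadherins, DSG3 was tested in iMeLC (-0.85, edgeR adjusted p = 0.703). Between the stages, 27 of 50 junction genes passed in CTRL (54.0%, against 49.4% of all genes) and 31 of 50 in CDKO (62.0%, against 59.8%). Of these, 23 of 50 were higher in iMeLC in CTRL, where 29.5% of all genes were, and 25 of 50 in CDKO, where 32.1% were.

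**Figure D5:**
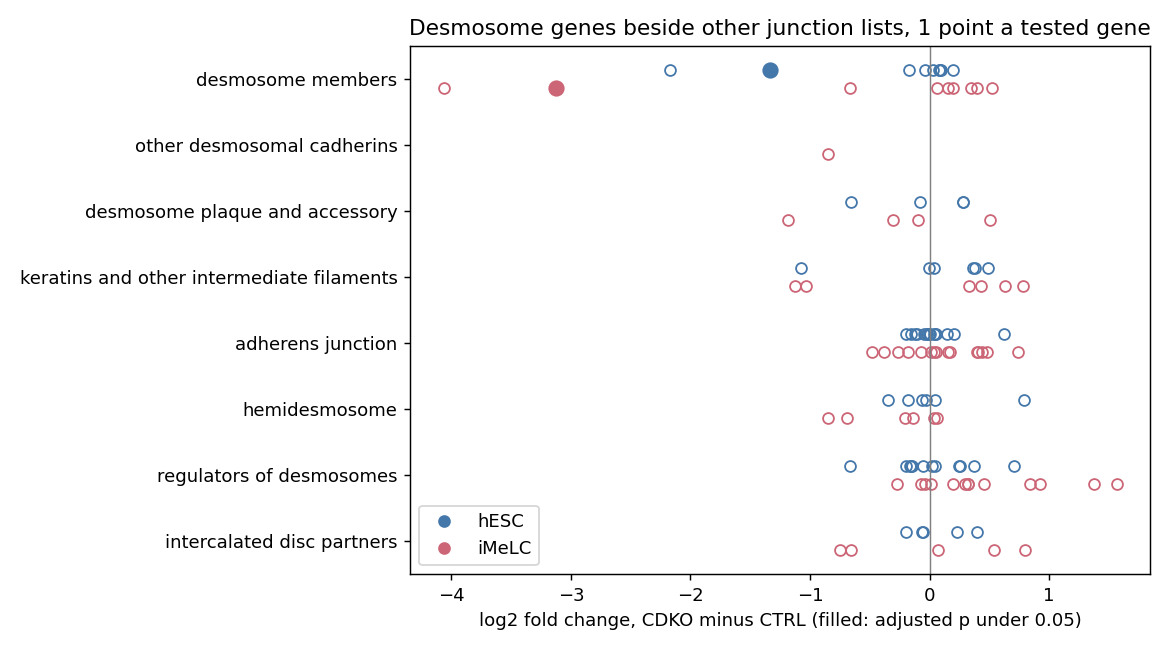
Fitted log2 fold change of CDKO against CTRL for the 9 desmosome genes (top line) and for each tested gene of the 7 other junction lists, 1 point a gene, in hESC and iMeLC; filled points passed an adjusted p under 0.05. PKP3 is the filled point at both stages, and the junction genes outside the 9 lie between -1.19 and 1.57.

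Genes that varied most like a member over the 12 libraries were sought by the Pearson correlation of log2(CPM + 0.5) after each stage's mean was taken off. The points share libraries and the genotype split, and r is given as a description. PKP1, the member with the largest fitted fold change at both stages, was most like DAZAP1 (r = 0.98), SNRPB (0.95), RAD51C (0.93), RPL12 (0.93) and SDCCAG8 (0.92). In iMeLC, where PKP1 had counts of 0 to 46, none of these passed between genotypes, and in hESC RPL12 did (log2 fold change -0.47, edgeR adjusted p = 0.031). PKP1 spanned 0 to 0.408 CPM in iMeLC and 0 to 1.98 CPM in hESC. With 0.5 added before the log, its r rested mostly on the hESC libraries. For PKP3, added after the values were seen, the leading genes were the imprinted gene NNAT (r = 0.98), TSPO (0.98), THEMIS2 (0.97), TCEAL7 (0.97) and the chemokine gene CXCL5 (0.97). The genotype split is part of the pattern that chose these genes. NNAT was -1.75 in hESC and -4.65 in iMeLC (edgeR adjusted p = 0.016 and 0.00415), beside -1.33 and -3.12 for PKP3, and TCEAL7 was -2.35 and -4.12 (0.0496 and 0.0084). TSPO passed at neither stage (-0.77 and -1.28, edgeR adjusted p = 0.216 and 0.0913), and THEMIS2 (-0.44 and -1.20, 0.0972 and 0.0284) and CXCL5 (-1.26 and -3.89, 0.0527 and 0.0126) passed in iMeLC alone.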

How the data were processed

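Total RNA from sorted cells or pellets was made into stranded libraries with the SMARTer Stranded Total RNA kit, per the labels' protocols. The deposited values are raw counts per gene symbol, in 1 table for hESC and 1 for iMeLC. The submitters' processing notes name FastQC, cutadapt, edgeR and GRCh38. The sources used here do not give the aligner, counting program, annotation or strand setting.

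Genes were tested with edgeR 4.0.16 in R 4.3.3 (TMM, filterByExpr, quasi-likelihood, two-sided, Benjamini-Hochberg over all genes tested). Genotypes were compared within a stage (6 libraries), and stages and the interaction in 1 fit of 12. That fit had no term for the line, although the same lines supplied both stages. Its p-values therefore treat the 12 libraries as independent. The edgeR code was tested on simulated data. DESeq2 1.42.0, no filter, other scalings, other sets of libraries and each library left out were alternatives. Lengths, positions and exon overlaps came from GENCODE 29 (GRCh38), where 34217 of 36762 symbols (93.1%) matched 1 gene. RefSeq promoters matched 7 of 9 members.

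All members were named. From each junction list, genes passing a test between genotypes were to be named, or else the 2 with the smallest adjusted p. The result of 1 such gene is not reported here. Likeness was sought for the member with the largest fitted fold change. Members and lists were chosen with earlier results of these data known. The surroundings of PKP3, its likeness, the replicate block and library totals without TMM were added after the data were seen.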

Additional observations from a re-analysis of the deposited data

Results flagged for a closer look

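The genotype difference of PKP3 differed between the stages. The CDKO minus CTRL log2 difference in iMeLC minus that in hESC was -1.75 (SE 0.24, edgeR interaction test, adjusted p = 0.0381), with group means of 12.6 ± 2.07 and 5.02 ± 0.545 CPM in hESC and 18.2 ± 3.07 and 2.09 ± 0.126 CPM in iMeLC (SD, n = 3). Leaving out 1 library kept the call without CTRL hESC 2 or CTRL1101 iMeLC, and the adjusted p reached 0.162 among the other omissions. PKP3 was proposed with its changes across the groups known, so these values are a description.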

How the results depend on the processing

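Depth limited PKP1 most, which had at most 46 counts in a library. The aligner and strand setting are unknown, and 3 libraries a group leave edgeR's calls sensitive to single libraries. Over the 9 members, 45 results were recomputed under 520 alternatives: 462 kept direction and side of the threshold, 34 lost and 13 gained the call, and 11 changed direction. For 27 results on other genes, 283 alternatives gave 250, 9, 19 and 5. Where a value changed and no construction is named, the cause was not tested.

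In hESC, 1 member was called, against 1.31% of the 17222 genes tested (3.57% with DESeq2). Without a filter on low counts 2 were called, with DESeq2 2, and with 1 library left out 0 to 1, the 0 coming without CDKO hESC 1 or CDKO hESC 2. In iMeLC, 1 was called, against 0.345% of the 19999 genes tested (7.51% with DESeq2). DESeq2 called 2, the 12-library fit called 4 (PKP3, PKP1, JUP and DSC2), and omissions gave 1 to 5, the 5 without CTRL1101 iMeLC. Between stages in CTRL 8 were called, against 49.4% of the 20262 genes tested. Omissions gave 5 to 7, the 5 without CTRL hESC 3, and DESeq2, its size factors, a 6-library fit and library totals each gave 6. In CDKO 7 were called in every omission and 6 with library totals, where the main fit called 59.8% of all genes. The set was proposed with its changes across the groups known, so nothing is read from these member counts. The interaction called 0 to 1 in omissions. Over all genes, hESC calls were 226 (1228 without a filter, 626 with DESeq2, 72 in the 12-library fit, 5 to 493 in omissions), iMeLC calls 69 (428, 1486, 1310 and 15 to 2646 in the same order), and interaction calls 4 (29 without a filter, 198 with DESeq2, 1 to 439 in omissions).

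Some log2 differences changed sign in omissions. In hESC these ranged from -0.16 to 0.028 for PKP2, -0.14 to 0.13 for DSP, -0.041 to 0.17 for DSG2, -0.0072 to 0.12 for CTNNB1, -0.0057 to 0.10 for CTNND1 and -0.10 to 0.0097 for ADAM10. In iMeLC they were -0.027 to 0.16 for PKP4 and -2.25 to 0.092 for DSG3. For DSC3 between stages in CDKO they were -0.11 to 0.14. Library totals reversed DSG2 in CTRL (-0.0028), JUP in CDKO (-0.17) and DSC3 in CDKO (-0.33).

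The hESC columns share numbers 1 to 3 between genotypes. Deviations of same-numbered libraries from their group means correlated at -0.017, 0.105 and 0.273 over 15549 genes, so the numbers were not taken as pairs, and of the CTRL libraries only number 3 correlated best with its own number. A replicate block by that number gave PKP3 -1.33 (edgeR adjusted p = 0.013), 1 member called and 594 genes. No paired analysis was possible because the hESC columns name no line and CTRL and CDKO iMeLC share none.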
